A study of Homo sapiens with 3 samples.

Results

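The comparison described here is between mdR-H460, the mid-term derivative that was grown out of a reprogrammed cancer cell culture, and H460, the parental line it came from. Every cell that the submitters' quality filter had kept was used: 4531 cells of H460 and 5151 cells of mdR-H460, which makes 9682 of the 14638 cells in the series. H460 is an established human lung large-cell carcinoma line. The study derived drug-resistant cells through reprogramming, and its title places the question in transient multi-drug resistance and epigenetic mechanism. Cells under reprogramming were kept on irradiated human fibroblasts as a feeder layer in conditioned Pluriton medium, then single cells of the derivatives and of H460 were captured with droplet 3' chemistry that tags each RNA molecule with a unique molecular identifier (UMI). The remaining 4956 cells are ldR-H460, the long-term derivative, whose values are given beside the others only to place them. Each of the 3 lines is 1 library of 1 culture, so no difference here has a replicate check, and culture, passage, library and line cannot be told apart. The labels do not say whether a derivative is a single clone, and what the codes P57 and D13 in the library names stand for is not explained there either.

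Reprogramming forces cells towards an embryonic state by reopening and closing chromatin, and cells that leave that state may settle on expression programmes that differ from the ones they started with. A line can also change because a few of its cells outgrow the rest, because a programme is switched on in a small share of cells at a time, or because every cell shifts together. A summed profile cannot separate these cases. Counts per cell can separate a change in a small share of cells from a shift of most cells. They cannot tell a completed outgrowth from a shift of every cell. Chromosome copy number differs between subclones of cancer lines and shifts the output of long runs of neighbouring genes together.

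Levels are given as CPM, the sum of a gene's UMIs in a library scaled to 1000000 UMIs. Shares of cells with a gene were taken after each cell had been thinned at random to 5000 UMIs, because deeper cells show more genes. Thinning left out 681 H460 cells (15.0%) and 1271 mdR-H460 cells (24.7%) that had fewer, so 3850 and 3880 cells remained. Intervals on folds and shares are 95% exact binomial intervals, and they cover counting error only.

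The libraries held 66192074 UMIs for H460 and 66624830 for mdR-H460, with medians of 14685 and 11736 UMIs and 3083 and 2503 genes per cell. Mitochondrial transcripts made up 4.80% and 5.21% of UMIs. Depth per cell ran from 233 to 48478 UMIs in H460 and from 236 to 49245 in mdR-H460, and 364 and 585 cells had fewer than 1000. The libraries shared 30 cell barcodes, 0.662% of all in H460 and 0.582% in mdR-H460. KRT18 and KRT8, the keratins of simple epithelia, stood at 1079 and 459 CPM in H460 and at 1755 and 625 CPM in mdR-H460, while EPCAM, another epithelial marker, was nearly absent from both at 0.348 and 0.270 CPM. The fibroblast markers, which the feeder layer could have brought in, summed to 15.7 CPM in H460 and 3.95 CPM in mdR-H460, with 7 of the 15 at 0 in both and COL1A2 among them. Blood cell markers summed to 5.29 and 6.90 CPM and endothelial markers to 0.181 and 0.525 CPM. No population that should lack the genes below was present to measure free RNA in droplets. The median log2 ratio of mdR-H460 over H460 was −0.10 over all genes, and composition-based scaling raised every log2 ratio by 0.15 (TMM) or 0.16 (DESeq2 size factors).

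Of 6402 genes that reached 10 CPM in the library where they were higher, 117 (1.83%) were at least 2-fold higher in mdR-H460 and 451 (7.04%) at least 2-fold lower. Scaled by composition, the split was 156 higher and 330 lower with TMM factors and 161 and 323 with DESeq2 factors. A gene is said here to have risen or fallen only where it passed such a fold rule, since 1 library a side allows no test. Most genes of either direction were seen in few cells at a time, as were most genes overall. Thinly spread genes made up 83 of the 117 that rose (70.9%) and 395 of the 451 that fell (87.6%), against 84.4% of all genes compared. Thinly spread means detected in under 50% of cells of the higher library, in at least 0.8 of the share that the same UMIs would reach if they fell evenly over cells. Genes of most cells, detected in at least 50% of cells of the library where they were higher, numbered 20 among those that rose (17.1%) and 33 among those that fell (7.32%), against 14.3% of all genes. Genes of a minority of cells, detected in under 50% and in less than 0.8 of the even share, numbered 14 (11.97%) and 23 (5.10%), against 1.33%. Over all 6402 genes the same classes held 914, 5403 and 85.

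**Figure D1:**
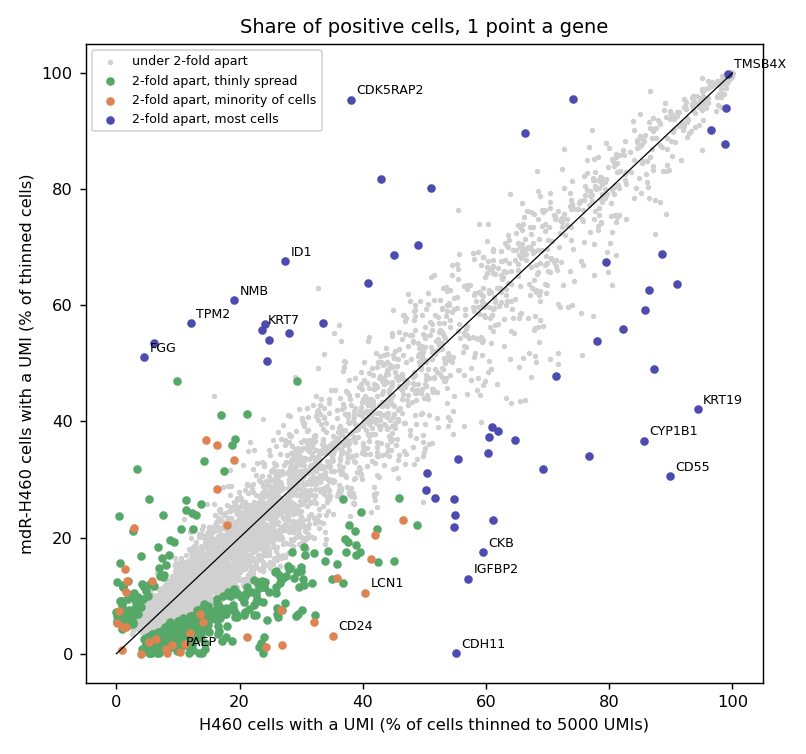
Share of thinned cells with at least 1 UMI in H460 (x axis, percent) and in mdR-H460 (y axis, percent) for each tested gene, with genes at least 2-fold apart coloured by class and the others in grey. The line marks equal shares. CDK5RAP2 moves from 38.1% to 95.4% of cells and CDH11 from 55.1% to 0.129%.

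The genes of most cells that rose were detected in a median of 62.4% of mdR-H460 cells, and those that fell in a median of 69.3% of H460 cells. Shifts from most cells of 1 line to under 10% of the other were few, at 2 genes that rose and 1 that fell.

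CDK5RAP2, a centrosome protein that anchors microtubule nucleation, rose most among the named genes of most cells, from 110 to 1085 CPM, which is 9.86-fold (9.62 to 10.1). It was detected in 38.1% of H460 cells and in 95.4% of mdR-H460 cells (61.6% and 89.7% without thinning). The median mdR-H460 cell held 5 of its UMIs and 90% of its cells held at least 1, against a median of 0 in H460, so the rise ran through nearly the whole culture. In ldR-H460 it stood at 810 CPM. FGG, the gamma chain of fibrinogen, rose from 29.3 to 233 CPM, or 7.95-fold (7.59 to 8.34). Its share of cells went from 4.55% to 51.1% (6.80% and 63.4% without thinning), and the richest 5% of mdR-H460 cells held 38.2% of its UMIs. Unlike CDK5RAP2 it was low again in ldR-H460, at 12.2 CPM.

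TPM2, the beta tropomyosin that winds around actin filaments, rose 6.49-fold (6.19 to 6.80), from 30.4 to 197 CPM and from 12.1% to 56.9% of cells (23.02% and 66.9% without thinning). NMB, which encodes the growth-promoting peptide neuromedin B, rose 4.58-fold (4.41 to 4.76), from 47.4 to 217 CPM and from 19.2% to 60.9% of cells. ID1, an inhibitor of differentiation-type transcription factors and a direct target of bone morphogenetic protein signalling, rose 3.98-fold (3.86 to 4.10), from 79.7 to 317 CPM and from 27.5% to 67.6% of cells. Its relative ID3 rose 2.597-fold, from 179 to 465 CPM. KRT7, a keratin of glandular epithelia, went from 57.8 to 184 CPM (3.18-fold) and from 23.6% to 55.8% of cells. Apart from ID3, already in 51.0% of H460 cells, these genes passed from under 50% to over 50% of cells.

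Other members of the class had varied roles. ASAH1, the lysosomal acid ceramidase, went from 65.0 to 200.05 CPM (3.08-fold). C15orf48, a mitochondrial protein induced in inflammation, went from 85.5 to 261 CPM (3.05-fold). SOD2, the mitochondrial superoxide dismutase, rose 2.41-fold, from 311 to 751 CPM, and the median cell went from 1 to 3 of its UMIs. CYBA, a membrane subunit of the superoxide-producing NADPH oxidase, rose 2.21-fold, and its share of cells went from 74.2% to 95.6%. TYMP, thymidine phosphorylase, rose 2.51-fold and AKR1C1, an aldo-keto reductase that detoxifies carbonyls, 2.01-fold. DEFB1, an epithelial defensin, rose 3.00-fold, from 73.3 to 219.5 CPM. In ldR-H460 their levels diverged: ASAH1, C15orf48, SOD2 and TYMP were at 45.6, 56.0, 159 and 36.7 CPM, all below H460, while DEFB1 and AKR1C1 were at 195 and 255 CPM.

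Further members were a chromatin protein and genes of cell division. HMGB3, a chromatin-binding protein, rose 2.99-fold, from 130.1 to 389 CPM and from 42.9% to 81.8% of cells. CDKN3, a phosphatase of the cell cycle, rose 2.45-fold and PTTG1, the securin that holds sister chromatids together, 2.21-fold. TMSB4X, the actin-sequestering thymosin beta 4, had the highest level in the class and went from 2819 to 5734 CPM or 2.03-fold (2.02 to 2.05). It was in 99.3% and 99.9% of cells, and its median went from 12 to 26 UMIs per thinned cell, so this was a shift in level and not in the number of cells with it. FTL and FTH1, the chains of the iron store ferritin, also differed widely in absolute level but stayed under 2-fold, at 12389 against 17681 CPM and 7103 against 9610 CPM.

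Among genes of most cells that fell, CDH11, a cadherin of mesenchymal cells, was lost almost entirely, from 167 CPM to 0.120 CPM, a fold of 1387 with a wide interval (704 to 3213) because few UMIs were left. It was detected in 55.1% of H460 cells and 0.129% of mdR-H460 cells (75.9% and 0.136% without thinning), and it was at 12.02 CPM in ldR-H460. CD55, which shields cells from complement, fell 9.29-fold (9.04 to 9.56), from 783 to 84.2 CPM. The median H460 cell held 3 of its UMIs and the median mdR-H460 cell 0, with 30.6% of cells still positive (48.2% without thinning). KRT19, a simple epithelial keratin, fell 8.74-fold (8.58 to 8.90), from 1696 to 194 CPM, and its median from 7 UMIs to 0. Where CDH11 was gone from nearly every cell, CD55 and KRT19 kept a low output in 30.6% and 42.1% of cells (48.2% and 54.8% without thinning).

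IGFBP2, which binds insulin-like growth factors, fell 7.63-fold (7.27 to 8.02), from 209 to 27.4 CPM. CKB, the brain-type creatine kinase, fell 5.79-fold (5.56 to 6.03), from 247 to 42.6 CPM. CYP1B1, a cytochrome P450 that oxidises aromatic compounds and oestrogens, fell 5.14-fold (5.01 to 5.28), from 519 to 101 CPM and from 85.7% to 36.7% of cells. All 3 went from most cells to fewer than 50% after thinning, but without thinning CYP1B1 was still in 56.3% of mdR-H460 cells. TMX4, a thioredoxin-like membrane protein, fell 3.92-fold and SCCPDH, a dehydrogenase-like protein, 3.55-fold. RHOB, a small GTPase of endosomes and actin, fell 3.55-fold and RGS2, which shortens G protein signals, 3.48-fold. SOX4, a transcription factor of progenitor cells, fell 2.85-fold, from 189.7 to 66.5 CPM. T, or brachyury, the T-box factor of mesoderm, fell 2.11-fold, from 402 to 191 CPM and from 82.2% to 56.0% of cells.

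In other genes of high level the fall was graded, with the gene still found in most cells. CXCL1, a neutrophil-attracting chemokine, fell 2.98-fold (2.96 to 3.00), from 3410 to 1145 CPM, while it stayed detectable in 98.9% and 87.8% of cells and its median went from 15 to 4 UMIs. LGALS3, the sugar-binding galectin 3, fell 2.27-fold (2.25 to 2.28), from 4068 to 1795 CPM, with a median of 17 against 6 UMIs. S100A4, a calcium-binding protein linked to motility, went from 836 to 414 CPM (2.02-fold). In ldR-H460 CXCL1 and LGALS3 were lower again, at 461 and 738 CPM, whereas S100A4 was at 526 CPM.

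The promoters of 4 of these genes, each with 1 listed start site, are shown. CDK5RAP2, which rose, and CKB, which fell, have a CpG-rich start. FGG, which rose, and CD55, which fell, have starts under the CpG-rich rule. CpG-rich means at least 50% G and C and at least 0.6 of the CpG number that the base composition would give, in the 250 bases before a start site. Each sequence is those 250 bases from RefSeq on GRCh38.p14, read 5′ to 3′ on the gene's strand, with every CG in capitals. CDK5RAP2 lies on the minus strand at chr9:120580168-120580417, FGG on the minus strand at chr4:154612657-154612906, CD55 on the plus strand at chr1:207321428-207321677 and CKB on the minus strand at chr14:103522831-103523080.
CDK5RAP2: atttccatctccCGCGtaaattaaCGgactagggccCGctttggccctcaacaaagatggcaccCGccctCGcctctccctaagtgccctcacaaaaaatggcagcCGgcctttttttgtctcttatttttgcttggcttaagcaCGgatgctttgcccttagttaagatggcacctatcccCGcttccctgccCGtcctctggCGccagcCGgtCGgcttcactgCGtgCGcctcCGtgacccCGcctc
FGG: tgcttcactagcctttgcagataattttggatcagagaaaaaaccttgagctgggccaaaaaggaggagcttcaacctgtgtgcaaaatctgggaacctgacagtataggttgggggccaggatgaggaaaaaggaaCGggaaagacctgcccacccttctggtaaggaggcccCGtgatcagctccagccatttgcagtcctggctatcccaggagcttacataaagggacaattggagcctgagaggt
CD55: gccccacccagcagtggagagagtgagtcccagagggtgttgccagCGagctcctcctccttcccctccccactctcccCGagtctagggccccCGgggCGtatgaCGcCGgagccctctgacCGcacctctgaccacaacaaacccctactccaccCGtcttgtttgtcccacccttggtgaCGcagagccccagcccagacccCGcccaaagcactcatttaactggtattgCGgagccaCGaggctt
CKB: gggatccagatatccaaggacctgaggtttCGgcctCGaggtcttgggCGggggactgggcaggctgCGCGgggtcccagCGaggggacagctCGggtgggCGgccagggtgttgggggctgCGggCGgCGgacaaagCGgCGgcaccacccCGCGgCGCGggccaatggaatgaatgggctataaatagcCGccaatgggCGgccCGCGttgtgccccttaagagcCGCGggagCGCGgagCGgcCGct
The CDK5RAP2 stretch holds 17 CpG sites and the CKB stretch 27, at 0.881 and 0.906 of the number their composition gives. The FGG stretch holds 2, at 0.126, and the CD55 stretch 12, at 0.503. The letters TATAAA, searched on both strands, occur in the CKB stretch and in 436 of the 5380 promoters that could be matched (8.10%). Of the genes of most cells with a promoter in the table, 4 of 16 that rose and 8 of 28 that fell (28.6%) were not CpG-rich, against 91 of 775 (11.7%) of all genes of most cells. For the full sets of genes 2-fold apart such a comparison is void, because only 76.1% of those that rose and 75.2% of those that fell had a promoter in the table. No methylation or chromatin was measured in these libraries.

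The genes with at least a 20-fold difference were counted in each cell, as genes with at least 1 UMI, to show how far single cells follow the contrast. The 21 genes lost to this degree included CDH11, FGF13, LSAMP, MMP1, HLA-DRB1, PAEP, LYPD1, SH2D2A, PRKCDBP, TSTD1, SLC38A5, RTN1, PLAT, ZEB2, C1orf21, CPVL, HPGDS, HR, PRR5L and SLC35F3. A thinned H460 cell held a median of 3 of these genes, and 92.7% of H460 cells held at least 1 and 52.4% at least 3. In mdR-H460, 254 cells (6.55%) held at least 1 of the genes and 3 cells (0.0773%) at least 3, and no cell held more than 4. The 6 genes gained to this degree were PKIB, FAM162B, DSP, FGA, HPD and IL11. At least 1 of their UMIs was found in 41 H460 cells (1.06%) and in 47.8% of mdR-H460 cells. The genes were picked by this same contrast, so the counts are a description and support nothing further, and many cells, such as those of mdR-H460 with no UMI of the gained genes, are not placed by them. In ldR-H460, 24.6% of cells held a UMI of the lost genes and 25.7% one of the gained genes.

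**Figure D2:**
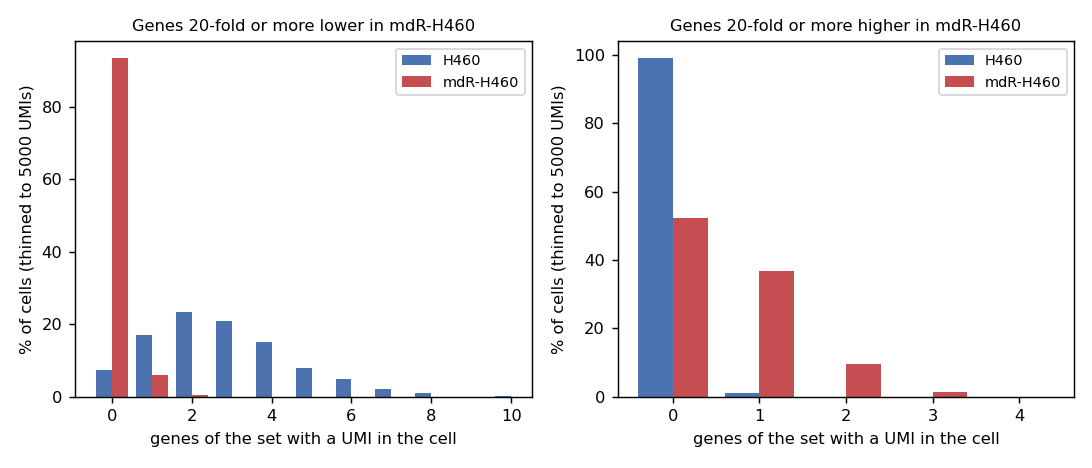
Number of genes with a UMI per thinned cell (x axis), among the 21 genes at least 20-fold lower and the 6 at least 20-fold higher in mdR-H460, against the percent of cells (y axis) for H460 and mdR-H460. In H460 92.7% of cells hold a UMI of the lost genes and in mdR-H460 6.55%, with the gained genes at 1.06% and 47.8%.

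Genes that rose in a minority of cells were led by IL11, a cytokine of the IL-6 family, at 0.680 against 20.1 CPM, or 29.6-fold (22.0 to 40.8). It was detected in 0.182% of H460 and 5.23% of mdR-H460 cells, 0.45 of the even share, and stood at 0.364 CPM in ldR-H460. SPINK6, a protease inhibitor of skin, rose 9.93-fold, from 6.36 to 63.1 CPM, and the richest 5% of mdR-H460 cells held 64.0% of its UMIs. FGB, the fibrinogen beta chain, rose 5.49-fold, from 1.66% to 12.5% of cells. ANKRD1, a target of YAP signalling, rose 4.90-fold, from 2.37 to 11.63 CPM, and stood at 97.3 CPM in ldR-H460. These genes were each in under 2% of H460 cells and present in clusters of UMIs in a small share of mdR-H460.

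Other minority genes were found in more of the H460 cells. CCNB1, the mitotic cyclin B1, rose 3.93-fold, from 42.8 to 168 CPM and from 14.6% to 36.8% of cells. S100A2, a calcium-binding protein of squamous cells, rose 2.72-fold, and GDF15, a stress-induced cytokine, 2.45-fold. NFKBIA, the inhibitor that NF-kB induces, rose 2.22-fold. SNAPC1, a subunit of a complex needed to transcribe small nuclear RNAs, rose 2.57-fold, from 43.9 to 113 CPM, while its share of cells moved only from 17.9% to 22.1%. That pattern placed its rise in few cells, which are described further on.

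Several of the genes that fell in a minority of cells were secreted proteins. MMP1, interstitial collagenase, was at 16.6 CPM in 154 of the thinned H460 cells and at 0 in mdR-H460, at least 369-fold lower when 3 UMIs are set as the floor for the library. PAEP, the secreted lipocalin glycodelin, fell 93.3-fold (75.0 to 118), from 113 to 1.22 CPM, and in H460 the richest 5% of cells held 89.8% of its UMIs. HLA-DRB1, an MHC class II chain, fell 113-fold, from 22.0 to 0.195 CPM and from 8.16% to 0.103% of cells. LCN1, a further lipocalin, fell 10.2-fold, from 249.6 to 24.4 CPM. FST, which traps activins, fell 9.96-fold, from 122 to 12.2 CPM and from 32.2% to 5.49% of cells. CD24, a surface glycoprotein used as a stem cell marker, fell 13.9-fold, from 135 to 9.67 CPM and from 35.2% to 3.09% of cells. CRYAB, a small heat shock chaperone, fell 12.8-fold, and the richest 5% of H460 cells held 80.6% of its UMIs. IL6, the inflammatory cytokine, fell 3.10-fold, from 166 to 53.6 CPM and from 41.3% to 16.3% of cells. Without thinning, IL6 was in 58.8% and LCN1 in 58.2% of H460 cells, so their place in this class holds at the thinned depth only.

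The thinly spread genes that rose were led by PKIB, an inhibitor of protein kinase A, at 0.151 against 28.7 CPM or 190.0-fold (103 to 397). It was seen in 0.130% of H460 and 12.3% of mdR-H460 cells. DSP, desmoplakin, which ties keratin filaments to desmosomes, rose 61.4-fold (36.4 to 113), from 0.212 to 12.98 CPM. FGA, the fibrinogen alpha chain, rose 46.0-fold (36.9 to 58.0), from 0.442% to 23.7% of cells. IL18, a cytokine released by inflammasomes, rose 12.1-fold and HPD, an enzyme of tyrosine breakdown, 35.6-fold. Their UMIs fell over cells about as chance would spread them, so a low level in many cells and expression in a set of cells cannot be told apart.

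Of those that fell, FGF13, an intracellular factor that regulates sodium channels, went from 58.0 to 0.180 CPM, or 322-fold (184 to 624), and from 23.7% to 0.103% of cells. LSAMP, a neural adhesion protein, fell 172-fold, from 25.8 to 0.150 CPM. ZEB2, a repressor of epithelial genes, fell 24.4-fold, from 19.8 to 0.811 CPM. PLAT, tissue plasminogen activator, fell 71.5-fold, and INHBA, the activin A subunit, 15.4-fold. RTN1, a reticulon of neurons, fell 74.1-fold, from 24.5 to 0.330 CPM, yet was at 21.1 CPM in ldR-H460. FGF13 and LSAMP were at 6.81 and 0.860 CPM there.

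Gene groups are described below at 1.5-fold, a rule that 295 genes (4.61%) passed upwards and 1100 (17.2%) downwards. Each group is read against those shares and against the median of −0.10 over all genes. The liver-type secreted genes had the highest median log2 ratio, 2.72, and 5 of the 6 measured of 26 listed rose and none fell. They were all 3 fibrinogen chains, C3, the central complement protein, from 1.57 to 13.03 CPM, and CP, the copper carrier ceruloplasmin, from 3.99 to 13.3 CPM. FGB (5.98 CPM), C3 and CP were under 10 CPM in H460, so they were compared only through mdR-H460 and could only count as risen. The direction of any listed gene under 10 CPM in 1 line is fixed in this way. Enzymes of amino acid breakdown had 4 of 11 higher and 1 lower. HGD, which acts after HPD in tyrosine breakdown, went from 3.596 to 25.1 CPM and BCAT1, a branched-chain aminotransferase, from 6.01 to 16.9 CPM. Thus the fibrinogen genes shared a direction but not a class, with FGG in most cells, FGA thinly spread and FGB in a minority.

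Epithelial structure did not move 1 way. Of 8 epithelial genes 3 rose (KRT7, KRT18 and CLDN4, a tight junction claudin at 9.004 against 18.4 CPM) and 2 fell (KRT19 and TJP1). KRT18 stayed in nearly all cells, at 95.1% and 99.2%. Of 6 desmosome genes DSP rose and 3 fell, among them JUP, plakoglobin, from 24.6 to 6.11 CPM and DSC2, a desmosomal cadherin, from 11.1 to 2.52 CPM. Of 10 squamous genes 4 rose (FAM83A, KRT81, S100A2 and KRT80) and 2 fell. The mesenchymal list had 0 of 7 higher and 5 lower with a median of −0.73. Beside CDH11, ZEB2 and S100A4 it held VIM, vimentin, which went from 895 to 538 CPM while staying in 94.99% and 86.7% of cells.

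Matrix genes mostly fell, and the cytoskeleton did so in part. Of 6 collagens 4 fell and 1 rose, with a median of −1.27. COL5A2, a fibrillar collagen, went from 193 to 80.6 CPM and COL6A1, of the microfibrillar kind, from 10.9 to 1.34 CPM, whereas COL7A1, of anchoring fibrils, went up from 3.11 to 12.4 CPM. Of 5 laminin and nidogen genes 4 fell and none rose (median −1.33), including LAMC1 from 61.3 to 24.4 CPM. Of 10 matrix proteases and their inhibitors 7 fell and none rose (median −1.12). Among 22 actin-binding genes 8 fell, with CNN3, a calponin, from 35.3 to 6.77 CPM and TPM1, an alpha tropomyosin, from 168 to 52.6 CPM, and 2 rose, TPM2 and TMSB4X, which leaves 12 that passed in neither direction. The tropomyosins therefore diverged: TPM2 rose while TPM1, TPM3 and TPM4 fell.

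Genes of stem cell surfaces, KLF factors and neural adhesion also fell. Of 8 stem cell surface and marker genes 6 fell (CD9, ABCG2, NT5E, ALCAM, ITGA6 and CD24) and 1 rose, with a median of −1.29. ALDH1A1, the retinaldehyde dehydrogenase, was the exception at 50.1 against 96.8 CPM. ABCG2, a drug exporter, went from 10.5 to 4.76 CPM. Among 7 exporter and vault genes it was the only fall. Of 20 pluripotency and reprogramming genes 4 were measured and 3 of them fell: KLF2 from 61.9 to 12.7 CPM, KLF4 from 87.9 to 28.8 CPM and KLF5 from 17.9 to 3.81 CPM. MYC, the growth-driving factor, passed no rule at 53.7 against 71.0 CPM. Of 9 neural genes 6 fell and none rose (median −2.08), with NCAM1, a neural adhesion molecule, from 15.2 to 1.17 CPM and NEFL, a neurofilament, from 82.5 to 26.1 CPM. In the stem cell, KLF and neural lists the share lower at 1.5-fold stood above the 17.2% of all genes, though no test of a list was run.

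In 4 lists of growth factor signalling more genes fell than rose. Of 6 insulin-like growth factor binding proteins 5 fell and none rose (median −1.65). Of 13 YAP targets 7 fell and 1 rose (median −0.70). CTGF, a secreted matricellular protein, went from 155 to 49.3 CPM, but CYR61, its close relative, did not pass, at 106 against 134 CPM. In the TGF-beta and BMP list 3 of 10 rose (ID1, ID3 and SMAD3) and 5 fell (ID2, TGFB2, TGFBR1, FST and INHBA). ID2 went from 174 to 99.6 CPM, opposite to ID1 and ID3. Of 14 genes that ERK signalling induces or that dampen it 6 fell and 1 rose.

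Of 46 genes of G2 and mitosis 11 rose and 2 fell (median 0.26). With each cell weighted equally 10 rose and 4 fell, with a median of 0.09. Of 44 S phase genes none rose and 8 fell (median −0.29), a share near that of all genes, and the median was −0.14 with TMM factors. CCNB2, a second mitotic cyclin, went from 23.6 to 60.7 CPM and PLK1, a mitotic kinase, from 15.6 to 36.4 CPM. CDC20, which activates the anaphase complex, went from 37.0 to 84.6 CPM. On the S phase side E2F1, the transcription factor of S phase entry, went from 35.6 to 21.8 CPM and CDC6, which loads the replicative helicase, from 34.3 to 18.4 CPM. Calls of phase per thinned cell, made from the same genes, placed 36.5% of H460 cells in G1, 39.4% in S and 24.1% in G2 or M, against 35.2%, 27.4% and 37.3% in mdR-H460. Within cells called G1 the medians were 0.30 for G2 and mitosis and −0.23 for S phase. These calls read free RNA too, whose part was not tested.

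Of 20 genes of the integrated stress response 10 rose and 1 fell, with a median of 0.61. ASNS, asparagine synthetase, went from 13.96 to 34.4 CPM and CEBPB, a transcription factor of stress and inflammation, from 56.5 to 122 CPM. DDIT3, the stress factor CHOP, went from 41.6 to 76.5 CPM and TRIB3, its inhibitor, from 49.9 to 82.4 CPM. Part of this came from few cells. Without the cells rich in DDIT3 (37 of H460 and 101 of mdR-H460) 6 genes rose and 1 fell with a median of 0.47, and DDIT3 itself was at a log2 ratio of 0.55, under the rule. Without the cells rich in SNAPC1 (10 and 96) 5 rose and 3 fell with a median of 0.21, and DDIT3 then was lower in mdR-H460, at −0.21. Neither cut can test DDIT3 itself, since the first picked cells by its level and the second took stress cells unequally. At the thresholds given further on, SNAPC1 cells covered 60 of 75 DDIT3 cells in mdR-H460 but 5 of 31 in H460. Among 19 immediate early genes, which respond to stimulation within minutes, 6 fell and 1 rose (median −0.17). That median was −0.50 without the cells rich in SNAPC1, −0.47 without those rich in DDIT3 and 0.08 when every cell was weighted equally. Of 30 targets of the antioxidant factor NRF2 4 rose and none fell (median 0.22), among them HMOX1, heme oxygenase 1, from 20.002 to 48.5 CPM.

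Of 15 genes of MHC class I and its peptide supply 5 fell, none rose and 10 passed in neither direction (median −0.28). Reads of HLA genes and of other genes with near-identical copies, KRT81 among them, may be split between copies, which makes their levels uncertain. HLA-B went from 98.7 to 24.1 CPM and HLA-C from 131 to 60.6 CPM. PSMB9, an immunoproteasome subunit, went from 45.5 to 14.9 CPM. Of 11 interferon-stimulated genes 5 fell, among them OAS1, a sensor of viral RNA, from 51.9 to 14.004 CPM, and 2 rose, both of the IFITM family of antiviral membrane proteins: IFITM1 from 0.544 to 10.5 CPM and IFITM3 from 141 to 288 CPM. The 14 measured chemokines and cytokines split, with IL11, IL18, GDF15, CCL20 and MIF higher and CXCL1, CXCL2, IL1B and IL6 lower. CCL20, which draws lymphocytes, went from 125 to 229.8 CPM and CXCL2, a neutrophil attractant, from 224.5 to 114 CPM.

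The basic machinery of the cell passed the rule in few genes. Of 83 ribosomal protein genes none rose and 1 fell (median 0.05), and of the 13 mitochondrially encoded genes none passed. Of 89 nuclear genes of oxidative phosphorylation 4 rose and none fell. Of 74 mitochondrial ribosomal protein genes 1 fell, and of 37 proteasome genes 2. Of 28 chromatin remodellers 8 fell and none rose, with CHD1, a remodeller of active chromatin, from 71.9 to 26.6 CPM. Of 25 histone-modifying enzymes 5 fell, and of 9 genes of the DNA methylation machinery 1. For all genes the share that fell was 17.2%, and these 3 chromatin lists lay on both sides of it.

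A small set of cells carried a stress programme in both lines and was larger in mdR-H460. The thresholds that define it were chosen after the values were seen. Cells with at least 5 DDIT3 UMIs after thinning numbered 31 in H460 (0.805%, interval 0.548 to 1.14) and 75 in mdR-H460 (1.93%, interval 1.52 to 2.42), and 0 of 4521 in ldR-H460, which allows up to 0.0816%. They held 75.7% and 80.7% of all DDIT3 UMIs. In the H460 cells of this kind the mean was 20.3 UMIs of IER2, an immediate early gene, against 0.38 in the others, and 9.74 against 0.21 of DDIT4, an inhibitor of mTOR. ATF3, a stress-induced factor, was at 5.90 against 0.12 UMIs. In mdR-H460 the same genes stood at 16.3 against 0.30, 15.2 against 0.25 and 6.63 against 0.09 UMIs. The programme around DDIT3 was thus present in the parental line as well.

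The lines differed in what accompanied it. At least 5 SNAPC1 UMIs were found in 8 H460 cells (0.208%) and in 76 mdR-H460 cells (1.96%, interval 1.55 to 2.45). Those cells were in large part the DDIT3 cells in mdR-H460, where 60 cells met both thresholds (78.9% of the SNAPC1 cells and 80.0% of the DDIT3 cells), whereas in H460 5 cells did (62.5% and 16.1%). HSPA6, a heat shock protein made only under strong stress, had a mean of 12.2 UMIs in the H460 cells rich in DDIT3 and 2.61 in those of mdR-H460, but 10 of these cells in each line held any of its UMIs and carried the means. The ribosomal protein share of the DDIT3 cells was 25.1% in H460 and 22.0% in mdR-H460, against 35.1% and 35.8% in the other cells. Their median depth was also lower, at 12799 against 16450 UMIs in H460 and 9639 against 15818 in mdR-H460, with mitochondrial shares of 3.28% against 4.87% and 3.66% against 5.42%. A UMI of the 21 lost genes was found in 14.7% of the DDIT3 cells of mdR-H460 and 6.39% of its other cells. In H460 the shares were 77.4% and 92.8%. In mdR-H460 the SNAPC1 cells also held more of several genes that had fallen in the line as a whole: CSRP1, a LIM domain protein, at 4.62 against 0.25 UMIs, RHOB at 3.39 against 0.29, CYP1B1 at 3.97 against 0.51 and CD55 at 3.16 against 0.47. Of the 33 genes of most cells that fell, 17 (51.5%) were at least 1.5-fold higher in these cells and 8 (24.2%) at least 1.5-fold lower. Over all 914 genes of that class 147 (16.1%) were higher and 454 (49.7%) lower.

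A second uneven programme ran the other way, from few cells to many. S100A9, a calcium-binding protein of inflamed epithelium and myeloid cells, passed no rule in the sum, at 363 against 509 CPM, yet its share of cells went from 15.9% to 44.5%. Cells with at least 10 of its UMIs numbered 168 in H460 (4.36%, interval 3.74 to 5.06) and 273 in mdR-H460 (7.04%, interval 6.25 to 7.89), and they held 83.5% and 55.3% of its UMIs. The very rich cells did not increase: 97 H460 cells (2.52%) and 77 mdR-H460 cells (1.98%) held 20 or more, and the highest held 160 and 100 UMIs. SLPI, a protease inhibitor of mucosal surfaces, spread in a like way, from 32.8% to 62.9% of cells at 203 against 274 CPM. S100A8, the partner of S100A9, was found in 5.43% and 11.5% of cells while its level was 124 and 84.7 CPM. In ldR-H460 S100A9 was at 2.13 CPM and 1 cell met the threshold.

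The rare S100A9 cells of H460 already held more of many of the genes that rose. FGG was at 1.43 UMIs in them against 0.09 in other H460 cells, and 31.5% against 3.31% of cells had it. C15orf48 was at 1.23 against 0.42, CYBA at 3.13 against 1.70, SOD2 at 2.65 against 1.46 and TMSB4X at 27.0 against 15.0 UMIs. CDK5RAP2 differed less, at 0.96 against 0.54. Of the 20 genes of most cells that rose in mdR-H460, 9 (45.0%) were at least 1.5-fold higher in these H460 cells, against 12 of all 914 genes of that class (1.31%). Another 2 of the 20 (10.0%) were at least 1.5-fold lower in them. Of the 33 that fell, 9 (27.3%) were at least 1.5-fold lower and none higher, against 16 of 914 lower (1.75%). KRT19, for example, was at 4.59 against 9.17 UMIs and LGALS3 at 12.6 against 22.2. By the genes that separate the lines these cells lay on the H460 side: 86.3% of them held a UMI of the 21 lost genes, against 93.0% of the other H460 cells, CDH11 was in 43.5% against 55.6%, and CD55 was higher in them, at 5.57 against 4.20 UMIs. Within mdR-H460 the S100A9 cells were at least 1.5-fold higher in 2 of the 20 genes (10.0%), against 7 of all 914 genes of that class (0.766%). The threshold was chosen after the values were seen, and no doublet caller was run.

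**Figure D3:**
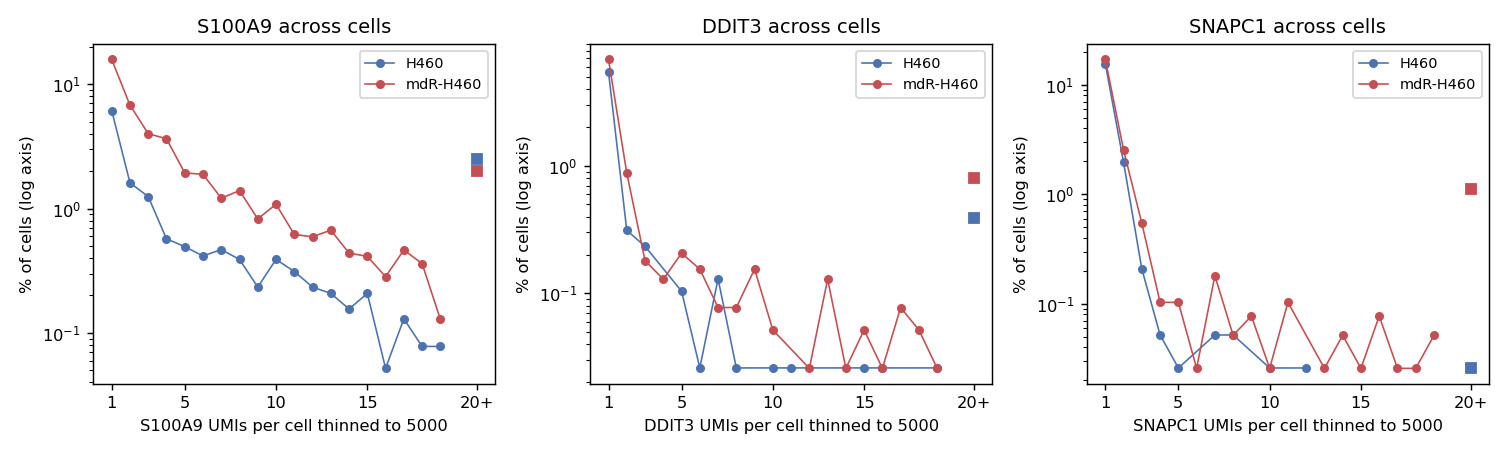
UMIs per thinned cell of S100A9, DDIT3 and SNAPC1 (x axis, the last square for 20 or more) against the percent of cells (y axis, log scale) in each library. S100A9 is detected in 15.9% of H460 and 44.5% of mdR-H460 cells while the share with 20 or more is 2.52% and 1.98%, and cells with 5 or more SNAPC1 UMIs make up 0.208% and 1.96%.

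Apart from their level, genes could differ in how unevenly they were spread over cells. Spread is the variance beyond counting noise divided by the squared mean, and values under 0.05 were set to 0.05 for the comparison. It was compared for 2037 genes that were within 1.5-fold between the lines and had a mean of at least 0.2 UMIs. It was at least 2-fold higher in mdR-H460 for 367 genes (18.0%) and at least 2-fold lower for 171 (8.39%). The excess was smaller without cells of 5 or more SNAPC1 UMIs, with 276 genes (13.7%) more spread and 227 (11.2%) less. That cut removed 76 mdR-H460 cells and 8 H460 cells, and it left most DDIT3 cells of H460 in place. With a mean of at least 1 UMI, where the estimate is firmer, 23 of 519 (4.43%) were more spread and 6 (1.16%) less. BASP1, a membrane protein of growing neurites, went from a spread of 0.159 to 0.878 at 610 and 518 CPM. CLU, the secreted chaperone clusterin, went from 0.393 to 1.49 at 285 and 222 CPM. HNRNPC, an RNA-binding protein of the spliceosome, went from 0.242 to 1.03 at 259 and 295 CPM. SLPI and S100A9 went the other way, from 10.0 to 1.39 and from 25.5 to 5.32.

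Long runs of neighbouring genes were lower together on 3 chromosomes. Windows of 40 neighbouring tested genes were read along each chromosome, and the limits below were set after the window values were seen, at the largest gap between tested genes on chromosomes 1 and 16 and at the ends of the low run on chromosome 17. On chromosome 1 the 321 genes beyond the gap (chr1:145738868-248859144, GRCh38) had a median log2 ratio of −0.54, a level of 0.689 of H460, and 290 of them (90.3%) were lower, against 55.9% of the placed genes outside the low segments. The 325 genes before the gap had a median of −0.04. On chromosome 16 the 144 genes before the gap (chr16:46407-31794869) had a median of −0.45 and 137 (95.1%) were lower, against −0.02 for the 133 genes after it. On chromosome 17 the 120 genes of the run (chr17:28347177-47623276) had a median of −0.50 and 114 were lower, against −0.04 before it and −0.13 after it. The gaps of chromosomes 1 and 16 span their centromeres, so these are whole arms or nearly so.

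**Figure D4:**
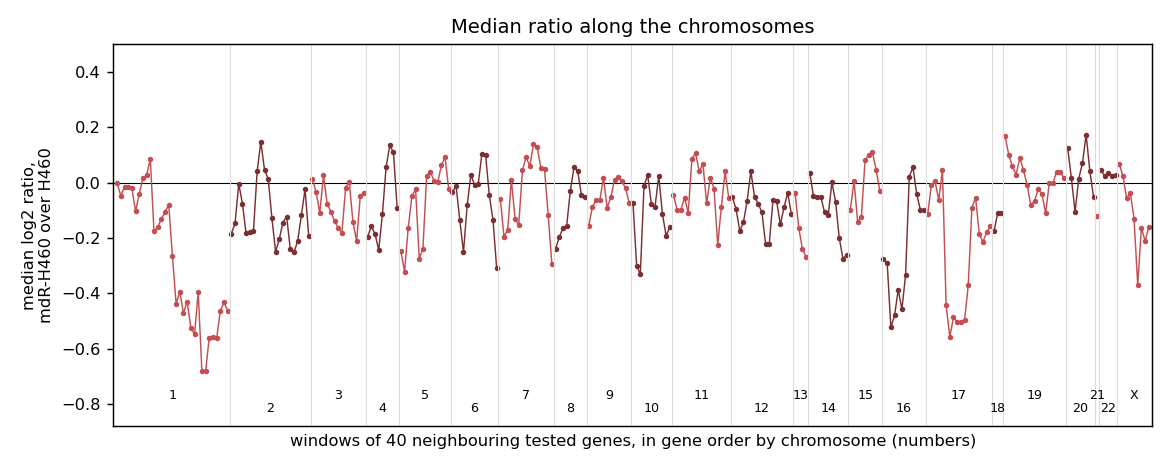
Median log2 ratio of mdR-H460 over H460 (y axis) in windows of 40 neighbouring tested genes, in gene order along the chromosomes (x axis). The low runs are those on chromosomes 1, 16 and 17, with segment medians of −0.54, −0.45 and −0.50.

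These segments held 585 of the tested genes and 234 of them were at least 1.5-fold lower, against 851 of the 5732 other placed genes (14.8%). At 2-fold the counts were 75 (12.8%) and 367 (6.40%). KRT19 lies in the chromosome 17 run, and CD55, SCCPDH, RGS2, CSRP1 and S100A4 lie on the low part of chromosome 1, as do 10 of the 11 measured S100 genes. The folds of the genes named singly here, up to 9.29, were beyond the segment medians. The 10 S100 genes had a median log2 ratio of −0.51, near that of the segment. Of these 10, 4 were at least 1.5-fold lower, and S100A2 among them rose. CDH11 lies on chromosome 16 outside the low part. In ldR-H460, compared with the same H460 cells, the segment medians were −0.56, −0.37 and −0.64.

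Per cell the shift was general. Summed over 228 genes of the chromosome 1 segment, chosen to be under 2-fold apart, low in level and evenly spread, the median thinned cell held 109 UMIs in H460 and 86 in mdR-H460, and 93.0% of mdR-H460 cells were below the H460 median. The chromosome 17 run gave 23 and 18 UMIs over 84 genes, with 83.2% of mdR-H460 cells below. The first part of chromosome 16 gave 43 and 35 UMIs over 117 genes, also with 83.2% below. The parts of the same chromosomes outside the segments did not shift in this way: 44.7% of mdR-H460 cells were below the H460 median before the gap of chromosome 1 and 50.7% after that of chromosome 16. Before and after the run on chromosome 17 the shares were 54.5% and 54.8%.

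The chromosome 16 segment was uneven within H460. Its sum had a variance of 3.48 times its mean in H460 and 1.90 times in mdR-H460, and its 10th and 90th percentiles were 28 and 60 UMIs in H460 against 25 and 45 in mdR-H460. The S100A9 cells of H460 had a median of 34 UMIs there, against 44 in the other H460 cells, while on chromosome 1 they had 108 against 109 and in the chromosome 17 run 24 against 23. With H460 cells ordered by this sum and cut into 10 equal parts, the share of S100A9 cells was 9.87% in the lowest part and 1.56% in the highest, with a minimum of 0.779% in part 8. The order was not particular to this segment: from the lowest to the highest part the median of the second part of chromosome 16 went from 23 to 33 UMIs and that of the chromosome 1 segment from 95 to 118, while the chromosome 17 run went from 21 to 24. DNA copy number was not measured in these libraries.

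**Figure D5:**
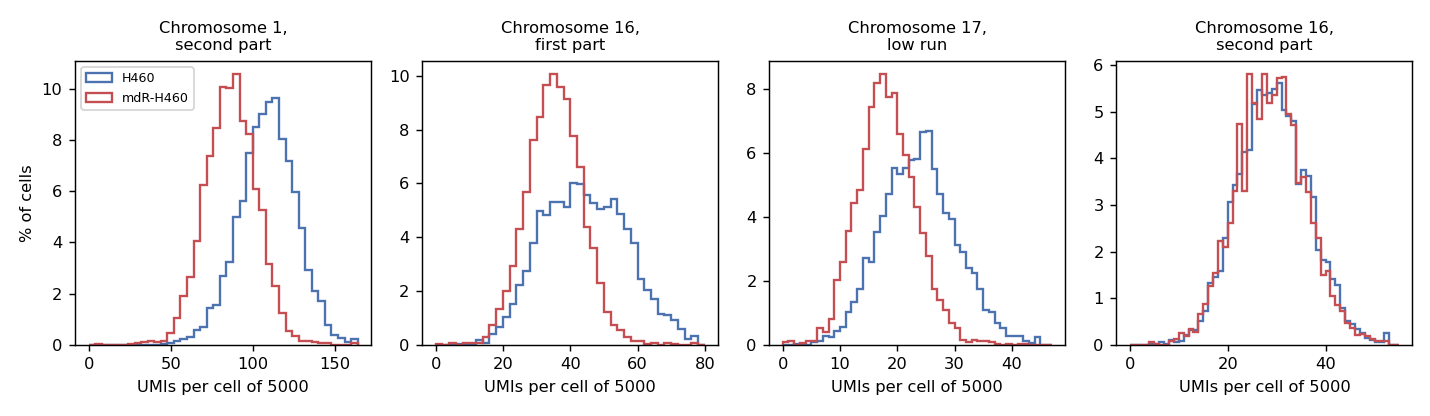
UMIs per thinned cell summed over the genes of a segment (x axis) against the percent of cells (y axis) for the second part of chromosome 1, the first part of chromosome 16, the low run of chromosome 17 and, for comparison, the second part of chromosome 16. Values above the 99.8th percentile are drawn in the last bin, and 93.0%, 83.2%, 83.2% and 50.7% of mdR-H460 cells lie below the H460 median.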

How the data were processed

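The deposited values are whole-number UMI counts per gene and cell, 1 table for each library, with the cells that passed the authors' quality filter. Per the submitters' processing notes they were made with Cell Ranger 3.0.2 and Seurat 3.0 on GRCh38. The gene annotation release and the limits of the quality filter are not given in the sources used here. No doublet caller was run here.

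From the deposited counts, CPM were computed from the UMIs summed over cells. The genes compared had 10 CPM or more in at least 1 of the libraries, and a library at 0 was set to 3 UMIs for a fold. Cells were thinned to 5000 UMIs with a fixed seed. Cell cycle phases were called with scanpy 1.11.5 on the thinned counts. The scripts were tested on simulated data. TMM factors (edgeR 4.0.16) and size factors (DESeq2 1.42.0) served only as other scalings in R 4.3.3, with no model fitted. The remaining steps used Python 3.11.15, numpy 2.4.6, scipy 1.17.1 and pandas 2.3.3. Segment sums per cell used genes under 2-fold apart with a mean under 3 UMIs and a spread under 1 in both libraries.

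The genes compared, the 59 gene lists and the thresholds were chosen with earlier results of these data known. The genes named were, for each direction, the 8 largest ratios in most cells, 6 in a minority and 5 thinly spread, the 6 largest differences in CPM, up to 4 members of each list, and the 6 genes whose spread moved most; all other genes named were chosen after their values were seen. Genes with clone-based names were not named, and some other genes that the rule picked are not reported here. Alternatives changed the scaling, the minimum level, the thinning depth, the class limits and the cells kept.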

Additional observations from a re-analysis of the deposited data

How the results depend on the processing

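No paired analysis was possible because each line is 1 library and no test was made. The 117 genes higher and 451 lower became 1028 and 2393 without a minimum level, 5.89% and 13.7% of 17466 genes. The lower count was 679 at 5 CPM (8.02% of the genes compared) and 267 at 20 CPM (6.09%), against 7.04% at 10 CPM. Leaving out the genes of the low segments of chromosomes 1, 16 and 17 gave 113 and 376, and leaving out the shared barcodes 117 and 447, both chosen after seeing the data. The classes depended on their limits. Genes of most cells that rose (20) were 6 at a thinning depth of 2500 UMIs and 11 with a limit of 60% of cells, and those that fell (33) were 62 at 10000 and 16 at 2500 UMIs. Genes of a minority that rose (14) were 8 with a limit of 0.7 of the even share and 33 with 0.9, and those that fell (23) were 8 and 53, and 14 at 2500 UMIs. The 367 genes of higher spread were 184 at 2500 UMIs, 94 with a least mean of 0.5 UMIs and 23 with 1. The 171 of lower spread were 350 at 10000 and 98 at 2500 UMIs, 35 with a least mean of 0.5 and 6 with 1, the latter least mean chosen after seeing the data. The other counts run stayed within 1.5 times. Of 2385 values of named genes under an alternative, 3 changed direction past a limit. AREG, an EGFR ligand, was at 0.22 in cells called G1 against −0.61. DDIT3 and SESN2, a stress-induced sestrin, were at −0.21 and −0.32 without the cells rich in SNAPC1. That cut took stress cells unequally from the lines. The cause of the 3 changes was not tested. Of 56 list medians, 7 changed sign under TMM and under DESeq2 factors, each within 0.11 of 0, 6 in cells called G1 and 5 with cells weighted equally. Depth limits the classes: a gene of low level cannot show more cells than it has UMIs.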

Other observations

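Some groups not described above had members that passed at 1.5-fold, which 17.2% of all genes did downwards. Of 5 imprinted genes, which are expressed from 1 parental copy, 1 rose and 3 fell: MEST, a hydrolase-like protein of growth control, went from 36.1 to 115 CPM and from 16.99% to 41.2% of cells, and PHLDA2, a growth repressor of placenta, from 163 to 61.1 CPM and from 48.8% to 22.1% of cells. Of 27 genes of glycolysis and the hypoxia response 5 fell and 1 rose (DDIT4), with both glucose transporters that passed lower: SLC2A1 from 65.4 to 35.4 CPM and SLC2A3 from 11.7 to 3.84 CPM. Of 20 genes of cholesterol and fatty acid synthesis 3 fell and none rose, among them SQLE, squalene epoxidase, from 46.2 to 27.0 CPM. The glycolysis and cholesterol lists lay near the share of all genes.

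Among 15 heat shock genes HSP90AA1, the stress-inducible HSP90, rose from 2188 to 3481 CPM and was in 99.3% and 99.4% of cells, while 4 fell, including HSPB1, a small heat shock protein, from 274 to 168 CPM. Of 16 apoptosis regulators 4 fell and 2 rose: CASP8, the initiator caspase of death receptors, went from 60.6 to 37.0 CPM, against BID, which links death receptors to mitochondria, from 82.99 to 126 CPM. Of 15 histone genes 3 fell and none rose, again near that share.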
